A study of Mus musculus with 4 samples.

Results

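The genes described here, called cyclic nucleotide genes below, carry symbols of families tied to cyclic AMP and cyclic GMP. Not every member makes, breaks down or binds these nucleotides. The families are the adenylyl cyclases (symbols beginning Adcy and a digit), the phosphodiesterases (Pde1 to Pde11) and the subunits of protein kinase A (PKA, Prkar and Prkac). The others are the Rap guanine nucleotide exchange factors (Rapgef) and the A-kinase anchoring proteins (Akap). The genes were chosen by symbol among array probe sets that carry exactly 1 gene symbol, with the brightest probe set taken for each gene. This gave 62 of 22180 genes, of which 9 make cyclic AMP, 25 carry a phosphodiesterase symbol, 6 encode PKA subunits, 6 are exchange factors or relatives and 16 are anchors. Expression was measured in Beta-TC-6, a mouse pancreatic beta cell line, on Affymetrix Mouse Gene 2.1 ST arrays. All 4 samples were grown in medium with 25 mM glucose and 15% heat-inactivated fetal bovine serum and were transfected with a lipid reagent. The 2 siNTC samples received a negative control siRNA, and the 2 siNF45 samples received a pool of 3 RNAi duplexes against NF45, the double-stranded RNA-binding protein encoded by Ilf2. No genotype, clone, time after transfection or separate culture is given in the labels, so replicate spread may be technical only, and every p-value below rests on it. The comparison asks which transcripts depend on NF45 in this line.

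In beta cells, hormones such as glucagon-like peptide 1 act through the stimulatory G protein on adenylyl cyclases, and the cyclic AMP made there strengthens glucose-induced insulin release. The signal is carried by PKA, whose regulatory subunits hold the catalytic subunits inactive until they bind cyclic AMP, and by the Epac proteins Rapgef3 and Rapgef4, which activate the small G protein Rap. Phosphodiesterases end the signal by hydrolysing the cyclic nucleotide, and anchors hold PKA close to its substrates.

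Values are on the authors' scale, taken as log2, and every difference below is siNF45 minus siNTC on that scale. A probe set was tested where its mean over the 4 arrays reached 1.65, the median of all probe sets, here called the floor. This left 41 of the 62 genes, among 11742 genes tested in all. Differences carry the moderated standard error (SE) of limma, a linear model fitted across all tested genes, and adjusted p-values are Benjamini-Hochberg values over all 11742 genes with a threshold of 0.05. Ilf2 gave 5.79 and 5.98 in siNTC and 3.67 and 3.77 in siNF45, a difference of -2.17 (SE 0.13, limma adjusted p = 0.020, exact two-sided permutation p = 0.333, the smallest that 2 against 2 allow). Its adjusted p was 0.307 to 0.471 when any 1 array was left out and 0.258 with the replicate number as a block. The 8 measured markers of beta cells, among them Ins2, Iapp, Pdx1 and Mafa, read 5 to 10.17, and the prohormone convertase Pcsk1 was the 1 of them at an unadjusted p under 0.05, with a difference of -0.435 (limma adjusted p = 0.180). Of 16 measured markers of other cells (exocrine and duct, endothelial, immune, mesenchymal), 13 lay below the floor, at 0.82 to 1.79. Sst, the somatostatin gene of delta cells, read 8.83 to 9.19 in siNTC and 8.07 to 8.18 in siNF45. Of the other islet hormone genes tested, Gcg differed by -0.02 and Ppy by 0.515 (unadjusted p = 0.0583). The duct keratin Krt7 read 3.13 to 3.41 in siNTC and 3.91 to 3.96 in siNF45. Their part in the results below was not tested, and fewer cells of a type cannot be told apart from less RNA per cell in such samples. The median difference over all tested genes was -0.065, and centring each array on its median over the tested genes adds 0.13 to every difference.

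None of the 41 tested cyclic nucleotide genes passed the adjusted threshold, which 10 genes or 0.0852% of all tested genes did. At an unadjusted limma p under 0.05, 10 of the 41 differed (24.4%, beside 17.2% of all tested genes), 7 lower and 3 higher in siNF45. The lower genes were 17.1% of those tested, beside 13.2% of all tested genes, and the higher ones 7.32%, beside 4.02%. The lower genes were the cyclase Adcy1, the phosphodiesterase Pde8a, the PKA regulatory subunits Prkar1a and Prkar2a and the anchors Akap6, Akap8l and Akap12. The higher genes were 3 phosphodiesterases, Pde6a, Pde1b and Pde1c, of which Pde1b was tested only because of its siNF45 values. By an unmoderated test, which uses each gene's own variance alone, 4 of the 41 were lower (9.76%, beside 8.22% of all genes in that test). Of the higher genes Pde6a alone remained in it (2.44%, beside 3.34%). Both siNF45 arrays lay below both siNTC arrays for 14 of the 41 genes (34.1%, beside 32.6% of all tested genes) and above them for 7 (17.1%, beside 15.2%). The median difference of the 41 genes was -0.12, and 26 of them (63.4%) lay below 0, beside 61.3% of all tested genes. After centring, 6 of the 41 were lower at an unadjusted p under 0.05 (14.6%, beside 7.4% of all tested genes) and 4 were higher (9.76%, beside 10.7%), with Prkar1a no longer among the lower genes and Pde4b added to the higher ones.

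**Figure D1:**
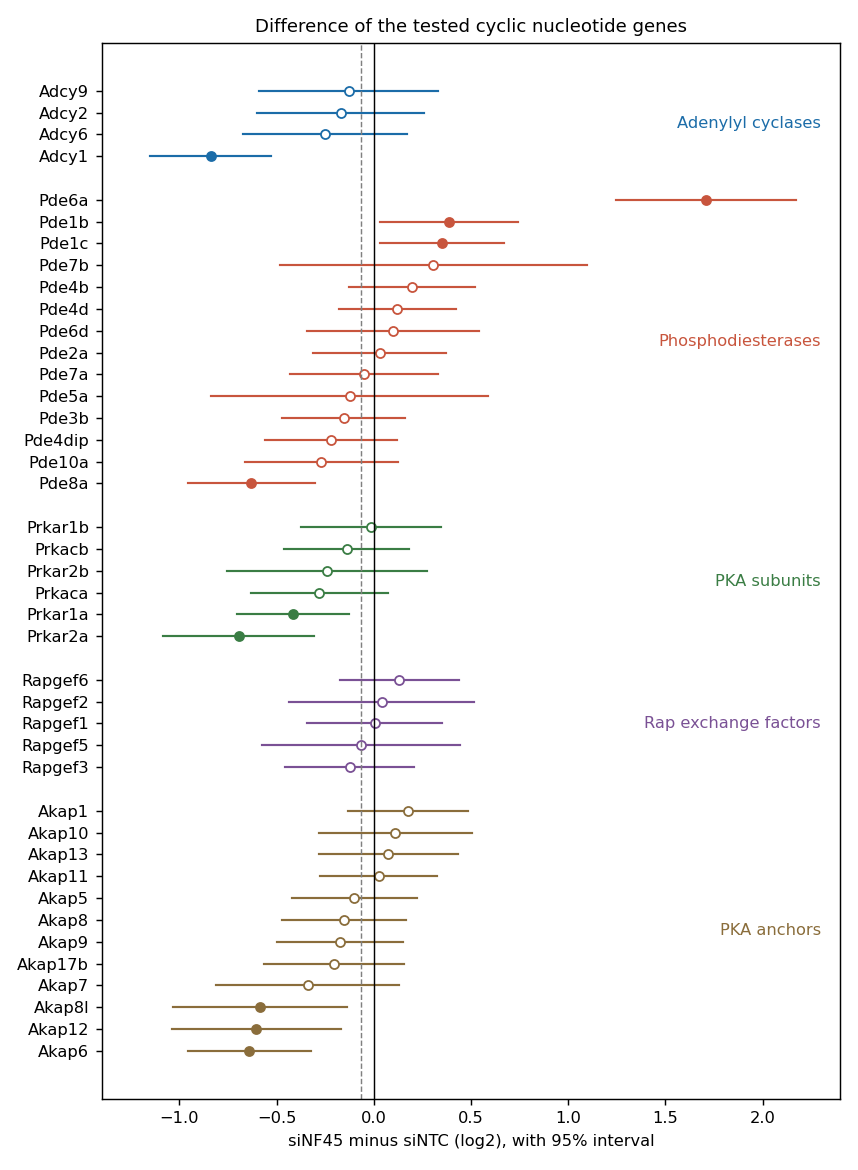
Difference between siNF45 and siNTC on the log2 scale for the 41 tested genes, ordered by role, with the 95% interval of limma as a line. Filled points have an unadjusted p under 0.05, and the dashed line marks the median of all 11742 tested genes at -0.065. Pde6a stands apart at 1.71, and Adcy1 is the lowest at -0.84.

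The promoters of the lower genes that make, break down or bind cyclic AMP are shown because several genes of this pathway are known to be controlled by CREB, the cyclic AMP-responsive transcription factor, which binds the palindrome TGACGTCA. Sequences are those of RefSeq on mouse assembly GRCm38.p6, from 250 bases before to 50 bases after an annotated start site, 5′ to 3′ on the gene's strand, which is the plus strand for all 4. Capitals mark TGACGTCA or its core TGACG on either strand, where the palindrome contains the core in both directions. The windows are chr11:7063183-7063482 for Adcy1, chr7:81213015-81213314 for Pde8a, chr11:109650612-109650911 for Prkar1a and chr9:108691893-108692192 for Prkar2a.
Adcy1: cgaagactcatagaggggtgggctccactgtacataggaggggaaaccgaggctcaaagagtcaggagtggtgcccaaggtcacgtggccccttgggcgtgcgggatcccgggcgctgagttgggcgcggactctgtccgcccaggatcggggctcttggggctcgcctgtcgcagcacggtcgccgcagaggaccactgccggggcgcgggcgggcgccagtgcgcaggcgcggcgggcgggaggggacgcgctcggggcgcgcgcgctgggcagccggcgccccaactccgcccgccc
Pde8a: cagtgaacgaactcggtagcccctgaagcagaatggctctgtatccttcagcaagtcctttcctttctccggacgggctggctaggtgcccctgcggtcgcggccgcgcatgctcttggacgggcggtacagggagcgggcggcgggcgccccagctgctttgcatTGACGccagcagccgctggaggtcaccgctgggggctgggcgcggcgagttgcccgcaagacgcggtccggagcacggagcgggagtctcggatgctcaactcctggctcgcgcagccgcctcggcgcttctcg
Prkar1a: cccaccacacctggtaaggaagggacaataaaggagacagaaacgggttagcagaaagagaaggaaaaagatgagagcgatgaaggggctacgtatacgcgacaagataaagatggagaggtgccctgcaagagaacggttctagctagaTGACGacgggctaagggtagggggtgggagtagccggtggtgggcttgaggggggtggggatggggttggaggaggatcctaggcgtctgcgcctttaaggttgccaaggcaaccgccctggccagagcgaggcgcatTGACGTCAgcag
Prkar2a: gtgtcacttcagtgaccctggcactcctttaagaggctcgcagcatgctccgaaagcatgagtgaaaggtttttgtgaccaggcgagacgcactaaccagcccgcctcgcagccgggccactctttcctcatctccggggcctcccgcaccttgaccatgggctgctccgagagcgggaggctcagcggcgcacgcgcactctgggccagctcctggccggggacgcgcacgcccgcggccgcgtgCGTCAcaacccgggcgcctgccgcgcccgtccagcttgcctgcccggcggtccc
Prkar1a has 6 such windows in the table, and the palindrome was in 2 of them that overlap. In the window printed it begins 38 bases after the start site, and a separate core begins 100 bases before it. That window was picked among the 6 because it had the most matches. Adcy1, Pde8a and Prkar2a have 1 window each, so none was picked for them. Pde8a had the core 84 bases before its start site and Prkar2a had it on the opposite strand, beginning 4 bases before the start site. No such letters were in the Adcy1 window. Of the 62 genes, 51 were in the promoter table, and Prkar1a alone among them held the palindrome (1.96%, beside 2.03% of 27025 genes), while 18 held the core (35.3%, beside 23.0%). Of the other genes with an unadjusted p under 0.05, Akap8l held the core, Akap6, Pde1b and Pde1c held neither motif, and Pde6a and Akap12 were not in the table. These matches describe letters and are not evidence of binding.

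Among the genes that make cyclic AMP, the calmodulin-stimulated cyclase Adcy1 was lower in siNF45 by the largest margin of the 4 tested. It read 4.21 and 4.27 in siNTC and 3.48 and 3.32 in siNF45, so both depleted samples lay well under both controls. The difference was -0.84 (SE 0.13), from 4.24 ± 0.04 to 3.40 ± 0.11 (SD, n = 2 each), or 1.79-fold (limma adjusted p = 0.079). It ranked 99 of 11742 by p, and its unadjusted p stayed between 0.00445 and 0.0123 when each array in turn was left out. The adjusted p was 0.049 after centring the arrays and also 0.049 when the floor was raised to the 70th percentile of all probe sets, so the call turned on such choices.

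The other tested cyclases had overlapping groups. Adcy6, a cyclase inhibited by calcium, read 2.71 and 2.85 in siNTC and 2.73 and 2.33 in siNF45, a difference of -0.25 (95% interval -0.67 to 0.17). Adcy9, a broadly expressed cyclase, read 5.06 and 4.88 in siNTC and 5.07 and 4.61 in siNF45, a difference of -0.13 (95% interval -0.59 to 0.33). In both genes siNF45 replicate 2 gave the low value. Adcy2 differed by -0.17 (95% interval -0.60 to 0.26). All 4 lay below 0 as deposited, and after centring 3 did, with Adcy9 at 0.

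Of the remaining cyclases, Adcy4, Adcy5, Adcy7, Adcy8 and the soluble, bicarbonate-activated Adcy10 lay below the floor. Adcy8, which like Adcy1 is stimulated by calmodulin, had a siNTC mean of 1.57 and a difference of -0.23, and Adcy5, a calcium-inhibited cyclase studied in human beta cells, read 1.03 and 1.25 in siNTC and 1.34 and 1.51 in siNF45. Both genes had separate groups, in opposite directions, at levels below the floor. Adcy3 is held by a probe set that carries a second gene symbol and is not analysed here.

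Breakdown showed differences in both directions. Pde6a, which encodes a catalytic subunit of the cyclic GMP phosphodiesterase of rod photoreceptors, had the largest difference of all 41 genes, and no other tested gene on the array was higher in siNF45 by as much. Its values were 1.91 and 2.34 in siNTC and 3.71 and 3.96 in siNF45. The siNTC arrays thus stood a little above the floor and the siNF45 arrays clearly above it. The difference was 1.71 (SE 0.19, 95% interval 1.25 to 2.17), from 2.12 ± 0.30 to 3.84 ± 0.18 (SD, n = 2 each), or 3.27-fold, rank 21 of 11742 by p (limma adjusted p = 0.071). Without 1 array the difference was 1.495 to 1.925, with an unadjusted p of 0.00192 to 0.00577. It passed the adjusted threshold after centring (0.00787), with a trend in the variance model (0.017), after quantile normalization (0.040) and at the higher floor (0.041).

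The genes that work with Pde6a in rods were mostly below the floor. Pde6b, the other catalytic subunit of the rod enzyme, read 1.10 and 1.22 in siNTC and 1.18 and 1.09 in siNF45, and the inhibitory subunit Pde6g read 1.19 and 1.54 in siNTC and 1.56 and 1.26 in siNF45. Both lay below the floor with overlapping groups, as did the cone inhibitory subunit Pde6h. The cone catalytic subunit Pde6c lay below it with both siNF45 arrays higher (1.14 and 1.35, beside 0.99 and 1.07). Of 14 measured photoreceptor markers, 13 were below the floor, Grk1, recoverin (Rcvrn), transducin (Gnat1) and the transcription factors Crx and Nrl among them, and the highest value of any of the 13 was 1.89. Rgs9, which is also expressed in brain, was the exception at 6.04 to 6.58. The genes on either side of Pde6a were looked at after its value was seen. Slc26a2 differed by -0.06 with overlapping groups (limma adjusted p = 0.855). Ppargc1b, a coactivator of mitochondrial genes, differed by -0.25 with both siNF45 arrays below both siNTC arrays (limma adjusted p = 0.368).

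The calmodulin-activated phosphodiesterases hydrolyse both cyclic nucleotides. Pde1c, described in rodent beta cells, read 5.18 and 5.08 in siNTC and 5.56 and 5.40 in siNF45, a difference of 0.35 (SE 0.13, limma adjusted p = 0.254). Its unadjusted p was 0.0715 without siNTC replicate 1, 0.131 without siNTC replicate 2 and 0.132 without siNF45 replicate 1. Pde1b read 1.43 and 1.63 in siNTC and 2.02 and 1.81 in siNF45, a difference of 0.38 (SE 0.14, limma adjusted p = 0.261). The groups did not overlap in either gene. Pde1b reached the floor only through its siNF45 arrays, so it had to differ to be tested, and its place among the higher genes supports nothing. The third family member, Pde1a, was below the floor at 1.05 to 1.21.

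Pde8a, a cyclic AMP-specific enzyme of high affinity, went the other way. It read 3.66 and 3.78 in siNTC and 3.18 and 3 in siNF45, with no overlap. The difference was -0.63 (SE 0.13), from 3.72 ± 0.08 to 3.09 ± 0.13 (SD, n = 2 each), or 1.55-fold (limma adjusted p = 0.130). Its unadjusted p lay between 0.0115 and 0.034 without 1 array. The related Pde8b read 1.58 and 1.95 in siNTC and 1.23 on both siNF45 arrays. Its mean over the 4 arrays was below the floor, and in a fit with no floor it differed by -0.54 (SE 0.15, unadjusted p = 0.0131, limma adjusted p = 0.266). Both PDE8 genes were thus lower on both siNF45 arrays than on either siNTC array. So were 32.6% of all tested genes and 11.6% of all genes below the floor.

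The other phosphodiesterases of known weight in beta cells differed less. Pde3b, which insulin signalling activates and cyclic GMP inhibits, read 6.71 and 6.54 in siNTC and 6.51 and 6.43 in siNF45, a difference of -0.15 (95% interval -0.47 to 0.16). Pde10a, which hydrolyses both nucleotides, read 5.23 and 5.09 in siNTC and 4.72 and 5.06 in siNF45, a difference of -0.27 (95% interval -0.66 to 0.12). In these genes the groups were separate by as little as 0.03. The cyclic AMP-specific Pde4b read 2.98 and 2.90 in siNTC and 3.23 and 3.04 in siNF45, a difference of 0.20 (95% interval -0.13 to 0.52), and Pde4d read 2.12 and 1.99 in siNTC and 2.18 and 2.17 in siNF45, a difference of 0.12 (95% interval -0.18 to 0.42). Neither Pde4b nor Pde4d passed, though both siNF45 arrays were the higher ones in each.

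The remaining tested phosphodiesterase genes had intervals on both sides of 0. They were the cyclic AMP-specific Pde7a (-0.05) and Pde7b (0.30), the cyclic GMP-stimulated Pde2a (0.03) and the cyclic GMP-specific Pde5a (-0.12). The siNTC replicates disagreed in Pde7b, at 4.32 and 3.49, and in Pde5a, at 2.33 and 1.46, which left intervals of -0.48 to 1.09 and -0.84 to 0.59. The symbols Pde4dip and Pde6d stand for no enzyme: the scaffold myomegalin (Pde4dip) differed by -0.22 and the prenyl-binding chaperone Pde6d by 0.10. Pde3a, Pde4a, Pde4c, Pde9a and Pde11a lay below the floor. Over the 14 tested genes with a phosphodiesterase symbol the median was 0.065, and 8 lay above 0. After centring 10 did, with a median of 0.195 beside 0.065 over all tested genes.

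**Figure D2:**
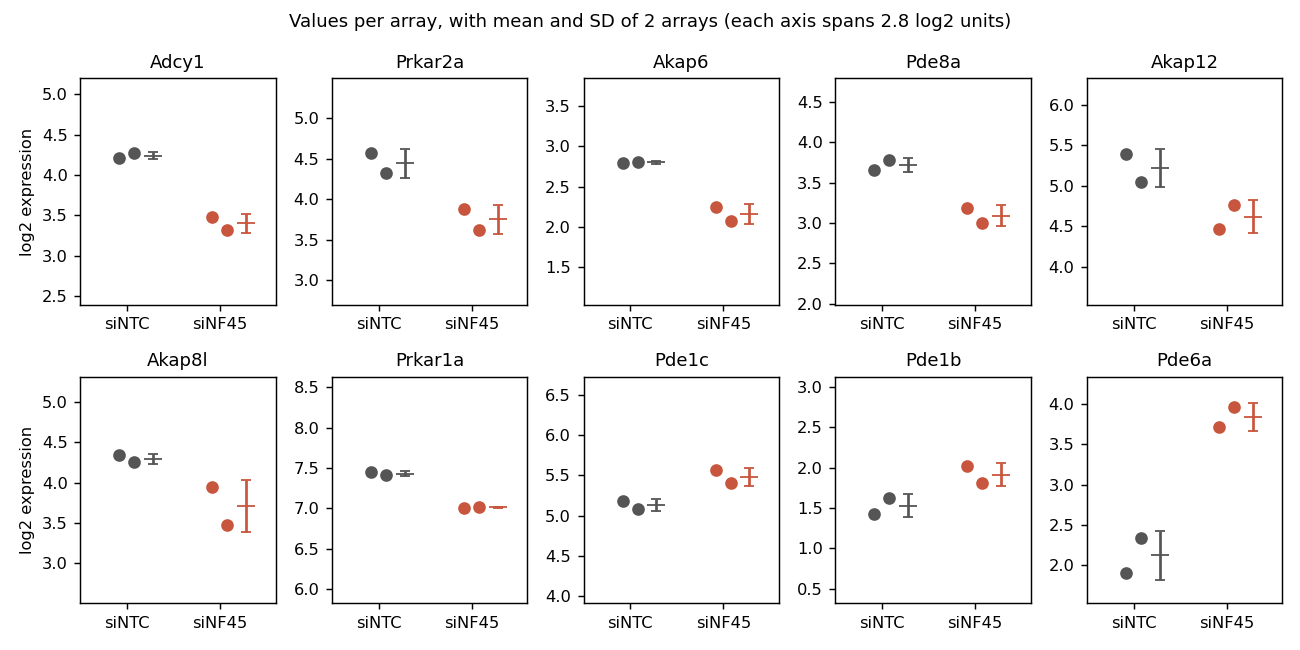
Log2 expression on each array for the 10 genes with an unadjusted limma p under 0.05, ordered by difference, with the mean and SD of the 2 arrays beside the points. Every axis spans the same number of log2 units, but levels cannot be compared between genes. The siNTC and siNF45 arrays do not overlap in any of the 10 panels, and Pde6a spans the widest gap. The genes were chosen by p on these same arrays, so this separation follows from the choice. Groups also do not overlap in 47.8% of all tested genes.

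Of the 4 PKA regulatory subunit genes, 2 were lower in siNF45 at an unadjusted p under 0.05, and neither catalytic subunit gene was, which makes 2 of 6 PKA genes (33.3%, beside 13.2% of all tested genes). Prkar2a, the type II regulatory subunit RIIα, read 4.57 and 4.32 in siNTC and 3.88 and 3.62 in siNF45, so the lowest control lay 0.44 above the highest depleted sample. The difference was -0.70 (SE 0.16, limma adjusted p = 0.136), or 1.62-fold. Its unadjusted p was 0.052 without siNTC replicate 1 and 0.015 to 0.043 without each other array. Prkar1a, the type I subunit RIα and the main brake on PKA in many tissues, read 7.45 and 7.41 in siNTC and 7.01 and 7.02 in siNF45. Replicates of this gene agreed to within 0.04, and the difference was -0.42 (SE 0.12, limma adjusted p = 0.179), or 1.33-fold, with an unadjusted p of 0.037 to 0.046 without 1 array. After centring the difference was -0.28.

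The other regulatory subunits did not show such a separation. Prkar2b, RIIβ, read 3.50 and 3.44 in siNTC and 2.94 and 3.52 in siNF45, a difference of -0.24 (95% interval -0.75 to 0.27), and siNF45 replicate 1 alone gave the low value. Prkar1b, RIβ, read 4.71 and 4.77 in siNTC and 4.87 and 4.58 in siNF45, a difference of -0.015 (95% interval -0.37 to 0.34). Whether the subunits differ from each other in response was not tested.

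The catalytic subunits differed by less than Prkar1a and Prkar2a, but Prkaca differed by more than Prkar2b and Prkar1b. Prkaca, Cα, read 7.08 and 6.80 in siNTC and 6.66 on both siNF45 arrays, a difference of -0.28 (95% interval -0.63 to 0.07, limma adjusted p = 0.380). A second and much dimmer Prkaca probe set went the opposite way, from 1.43 and 1.30 to 1.58 and 1.73. Prkacb, Cβ, read 5.82 and 5.65 in siNTC and 5.65 and 5.54 in siNF45, a difference of -0.14 (95% interval -0.46 to 0.18). All 6 PKA subunit genes lay below 0, as did 61.3% of all tested genes, with a median of -0.26 beside -0.065. After centring 5 of the 6 did, with a median of -0.13 beside 0.065. Prkar1b turned to 0.059 after quantile normalization and to 0.12 after centring.

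The exchange factors for Rap showed no difference at an unadjusted p under 0.05. Rapgef3, the cyclic AMP-binding Epac1, read 1.70 and 1.74 in siNTC and 1.71 and 1.48 in siNF45, a difference of -0.12 (95% interval -0.46 to 0.21), close to the floor, and its dimmer second probe set differed by -0.095. Rapgef4, the Epac2 of beta cells, had no probe set with a single symbol and is not analysed here. The differences of the other family members were those of Rapgef1 at 0.005, Rapgef2 at 0.04, Rapgef5 at -0.065 and Rapgef6 at 0.13. In Rapgef6 both siNF45 arrays (3.96 and 4.11) lay above both siNTC arrays (3.91 and 3.90), and in the others the groups overlapped. Rapgefl1 was below the floor. The median of the 5 tested genes was 0.005, and centring put all 5 above 0, with a median of 0.135 beside 0.065 over all tested genes.

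Of the 12 tested anchors, 3 were lower in siNF45 at an unadjusted p under 0.05 (25%, beside 13.2% of all tested genes) and none was higher (beside 4.02%). Akap6, known as mAKAP, a scaffold of the nuclear envelope in muscle and neurons, read 2.79 and 2.81 in siNTC and 2.25 and 2.07 in siNF45. The groups were apart by 0.54, and the difference was -0.64 (SE 0.13, limma adjusted p = 0.126), or 1.56-fold, with an unadjusted p of 0.00838 to 0.0265 without 1 array. Akap12, the membrane scaffold gravin, read 5.39 and 5.05 in siNTC and 4.47 and 4.76 in siNF45, a difference of -0.60 (SE 0.18, limma adjusted p = 0.192). Its unadjusted p was 0.109 without siNTC replicate 1 and 0.106 without siNF45 replicate 1. Akap8l, a nuclear relative of Akap8, read 4.34 and 4.25 in siNTC and 3.94 and 3.48 in siNF45, a difference of -0.58 (SE 0.18, limma adjusted p = 0.207). Here the unadjusted p was 0.136 without siNTC replicate 1, 0.10 without siNTC replicate 2 and 0.070 without siNF45 replicate 2. Akap6 thus held under each array left out, and the other two did not.

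None of the remaining anchors had an unadjusted p under 0.05. Akap5, which holds PKA with calcineurin at the plasma membrane, read 2.09 and 1.95 in siNTC and 1.99 and 1.85 in siNF45, a difference of -0.10 (95% interval -0.42 to 0.22). Akap1, the anchor of the outer mitochondrial membrane, read 3.36 and 3.22 in siNTC and 3.43 and 3.50 in siNF45, a difference of 0.17 (95% interval -0.13 to 0.48), and was the anchor with the highest difference. Akap13 read 3.32 and 3.54 in siNTC and 3.41 and 3.60 in siNF45, a difference of 0.075 (95% interval -0.28 to 0.43). The centrosomal and Golgi anchor Akap9 differed by -0.17, the chromatin-associated Akap8 by -0.15, Akap17b by -0.20 and Akap7, a small membrane anchor, by -0.34 (95% interval -0.81 to 0.13), while Akap10 differed by 0.11 and Akap11 by 0.025. Akap8, Akap9 and Akap17b had both siNF45 arrays below both siNTC arrays and did not pass even unadjusted. Of the 12 tested anchors 8 lay below 0 around a median of -0.17, which was -0.035 after centring, beside 0.065 over all tested genes. Akap2, Akap3, Akap4 and Akap14 were below the floor, at 1.07 to 1.38.

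Across the whole family, the 10 genes with an unadjusted p under 0.05 kept their direction without 1 array, as separate groups must. The difference was then -0.92 to -0.76 for Adcy1, -0.73 to -0.55 for Akap6 and -0.72 to -0.54 for Pde8a. It was -0.435 to -0.395 for Prkar1a, -0.825 to -0.565 for Prkar2a, -0.775 to -0.435 for Akap12 and -0.815 to -0.355 for Akap8l. For the higher genes it was 1.495 to 1.925 for Pde6a, 0.28 to 0.49 for Pde1b and 0.27 to 0.43 for Pde1c. The 21 genes below the floor read 0.78 to 1.95 and differed by at most 0.54 in size, which was Pde8b. Among them both siNF45 arrays were under both siNTC arrays in 6 (28.6%, beside 11.6% of all 10438 genes below the floor) and above them in 3 (14.3%, beside 23.7%). Replicates of the 41 tested genes differed by a median of 0.14 in siNTC and 0.19 in siNF45, beside 0.15 in both groups over all tested genes.

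**Figure D3:**
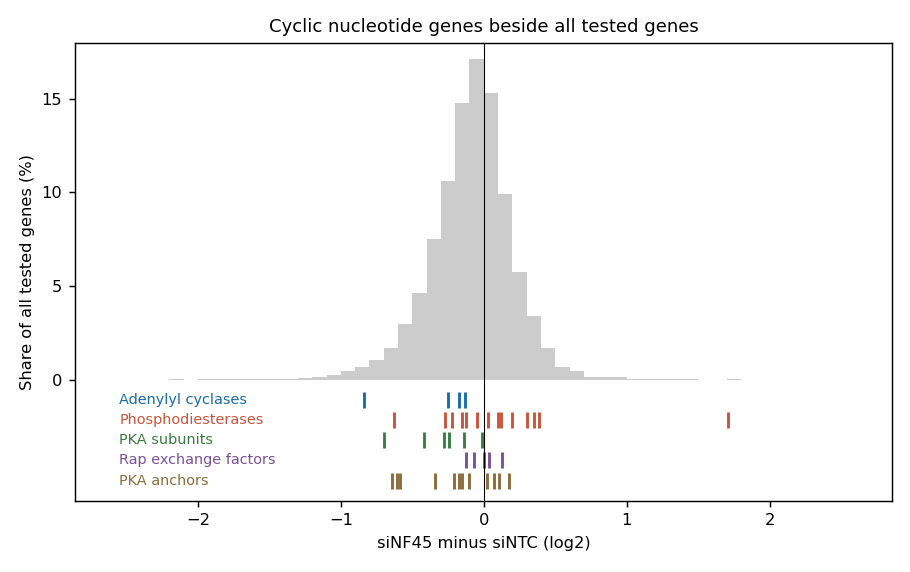
Distribution of the difference between siNF45 and siNTC (log2) over all 11742 tested genes in grey, as a share of genes per bin, with a tick for each of the 41 cyclic nucleotide genes below, in 1 row per role. Most ticks lie within the bulk of the distribution, and Pde6a at 1.71 lies in its upper tail.

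Around these enzymes, other genes of cyclic nucleotide signalling were taken from 8 lists. The lists were chosen with earlier results of these data known. The shares given here and below are thus descriptions and cannot show that a list differs from other genes. Of 84 listed symbols 69 had a probe set, and 48 genes were tested. The adjusted threshold was passed by 0 of them. At an unadjusted p under 0.05, 9 were lower (18.8%, beside 13.2% of all tested genes) and 2 higher (4.17%, beside 4.02%; Glp1r and Rap2b), and the median difference of -0.065 was that of all tested genes.

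Inputs to the cyclases went in both directions. Glp1r, the receptor for glucagon-like peptide 1, read 9.82 and 9.83 in siNTC and 10.29 and 10.14 in siNF45, a difference of 0.39 (SE 0.12, limma adjusted p = 0.216). The receptor for the other incretin, Gipr, differed by 0.27 and the stimulatory G protein Gnas by -0.16. Glp1r was the only one of 6 tested stimulatory inputs at an unadjusted p under 0.05 (16.7%, beside 4.02% of all tested genes higher). Of 9 tested inhibitory inputs, 1 was lower at that threshold (11.1%, beside 13.2% of all tested genes) and none higher. This was the galanin receptor Galr1, at 5.31 and 5.33 in siNTC and 4.87 and 4.76 in siNF45 (-0.50, SE 0.12, limma adjusted p = 0.145). The somatostatin receptors Sstr2 and Sstr5 differed by 0.32 and 0.28 without reaching an unadjusted p of 0.05.

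Of 7 tested genes for cyclic nucleotide channels, Popeye proteins and export, 3 had lower values at that threshold (42.9%, beside 13.2% of all tested genes) and none higher (beside 4.02%). Bves and Popdc3 encode Popeye proteins, membrane proteins that bind cyclic AMP. Bves read 6.64 and 6.63 in siNTC and 5.76 and 5.83 in siNF45, a difference of -0.84 (SE 0.12, limma adjusted p = 0.079), and Popdc3 read 4.66 and 4.51 in siNTC and 3.93 and 3.65 in siNF45, a difference of -0.80 (SE 0.15, limma adjusted p = 0.113). Both separated the groups by more than the spread of either. The cyclic nucleotide-gated pacemaker channel Hcn2 differed by -0.66 (SE 0.21, limma adjusted p = 0.217). The photoreceptor and olfactory channel genes Cnga1 to Cnga4, Cngb1 and Cngb3 were below the floor.

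For cyclic GMP, values of 3 of the 7 tested makers and kinases were lower at that threshold (42.9%, beside 13.2% of all tested genes), and none was higher (beside 4.02%). Npr2, the receptor guanylyl cyclase for C-type natriuretic peptide, read 2.82 and 3.30 in siNTC and 1.95 and 1.90 in siNF45, a difference of -1.14 (SE 0.18, limma adjusted p = 0.090). Gucy1b1, the beta subunit of the nitric oxide receptor, differed by -0.68 (SE 0.17) and Gucy2c, the guanylin receptor, by -0.38 (SE 0.13), with limma adjusted p of 0.155 and 0.229. Gucy1b1 read 2.12 and 2.47 in siNTC and 1.49 and 1.74 in siNF45, where its mean was below the floor. It was tested only because of its siNTC values, so its count among the lower genes supports nothing.

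Downstream of PKA, the CREB list had 2 of 9 tested genes lower at that threshold (22.2%, beside 13.2% of all tested genes) and none higher (beside 4.02%). The salt-inducible kinase Sik1, itself a CREB target that restrains the CREB coactivators, read 4.69 and 4.47 in siNTC and 3.47 and 3.37 in siNF45, a difference of -1.16 (SE 0.14, limma adjusted p = 0.071), and Sik2 differed by -0.70 (SE 0.14, limma adjusted p = 0.128). The coactivator Crtc3 differed by -0.50 (SE 0.20, unadjusted p = 0.0501), and Creb1, looked at after its values were seen, by -0.045 (95% interval -0.37 to 0.28). Pkia, the 1 tested PKA inhibitor peptide, differed by -0.18 (limma adjusted p = 0.480). Of 9 tested genes for Rap proteins and their inactivators, 1 was higher at that threshold (11.1%, beside 4.02% of all tested genes) and none lower. This was Rap2b, at 1.53 and 1.45 in siNTC and 1.82 and 1.95 in siNF45 (limma adjusted p = 0.212). It was tested only because of its siNF45 values, so its count among the higher genes supports nothing. In the same list, the Rap inactivators Sipa1 and Rap1gap differed by -0.34 and -0.17. The calmodulin genes had no probe set with a single symbol.

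**Figure D4:**
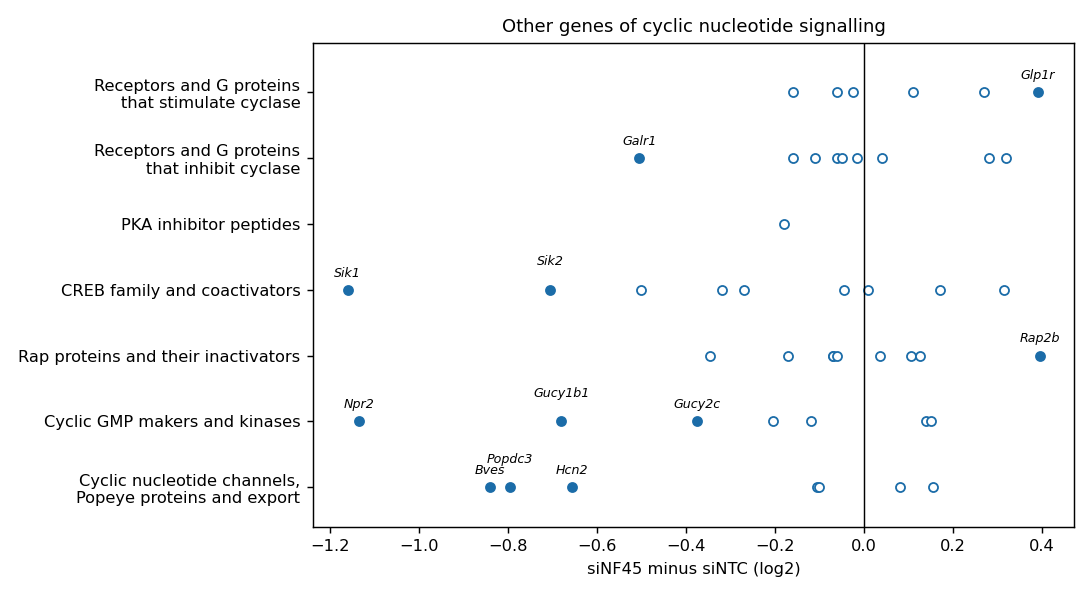
Difference between siNF45 and siNTC (log2) for the 48 tested genes of the other cyclic nucleotide lists, 1 row per list, with genes at an unadjusted limma p under 0.05 filled and named. Named points lie to the left of 0 for cyclic GMP makers, for channels and Popeye proteins and for the CREB list, and Glp1r and Rap2b lie to the right.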

How the data were processed

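Per the labels' protocols, total RNA (250 ng per array) was prepared with a miRNeasy kit and labelled with the WT PLUS kit. The deposited table holds 1 log2 value per probe set and array. Per the submitters' processing notes the authors used Transcriptome Analysis Console. Its version, summarisation and background correction, the log base and the annotation build are unstated in these sources, and the base was taken as log2 from the range of values (0.12 to 12.21). Array medians over all probe sets were 1.64 and 1.64 in siNTC and 1.66 and 1.66 in siNF45. Over the tested genes they were 3.82 and 3.76 in siNTC and 3.72 and 3.60 in siNF45, lowest in siNF45 replicate 2. Genes are not centred, and direction follows the sample labels. The number of arrays limits the precision.

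The platform annotation gave 1 gene symbol to 23521 of 41345 probe sets, several to 1814 and none to 16010. Of the 23521, 23328 matched RefSeq by gene number and 0 symbols were updated. Probe sets with 1 symbol and a mean of at least 1.65 were kept, the brightest per gene, and tested with limma 3.58.1 in R 4.3.3 (lmFit, eBayes, no covariate), with 2 residual and 3.69 prior degrees of freedom, after a test on simulated data. All members are named or counted, those at an unadjusted p under 0.05 or on a list of beta cell genes with every array's value, and in each pathway list those at that p and up to 3 with the smallest p. The members and lists were chosen with earlier results of these data known.

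Alternatives were no floor, a floor at the 70th percentile, quantile normalization, centred arrays, eBayes robust or with a trend, the replicate block, averaged probe sets, leaving out each array, an adjusted threshold of 0.10 and an unmoderated test. Both groups have replicates 1 and 2, and nothing in the labels pairs them. No slide or date was used here.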

Additional observations from a re-analysis of the deposited data

How the results depend on the processing

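Calls depended on the variance model, the floor and the scaling. All tested genes gave 10 calls as described, 87 with a floor at the 70th percentile, 62 after quantile normalization, 172 after centring, 174 with a trend, 190 at an adjusted p under 0.10, 0 by the unmoderated test and 0 without any 1 array (1236 to 1670 at an unadjusted p under 0.05). Of the 41 cyclic nucleotide genes 0 were called as described, beside 0.0852% of all tested genes. At the higher floor 2 of 30 were called, beside 1.09% of 7977 genes. Of the 41, 1 was called after quantile normalization (beside 0.528%) and 2 after centring (beside 1.46%). With a trend 1 was called (beside 1.48%), and at an adjusted p under 0.10 there were 2 (beside 1.62%). The calls were always from Pde6a and Adcy1. In the fit with the replicate block 0 genes and 0 cyclic nucleotide genes passed, 1909 genes had an unadjusted p under 0.05, and Ilf2 differed by -2.17 (limma adjusted p = 0.258). Same-numbered arrays had deviations correlated at 0.0062 across genes, which cannot settle pairing with 2 per group. The unmoderated test gave Ilf2 at -2.17 (adjusted p = 0.328). At an unadjusted p under 0.05, 4 cyclic nucleotide genes were lower (9.76%, beside 8.22% of all genes in that test). In the same test 1 was higher (2.44%, beside 3.34%). Without 1 array Ilf2 ranged from -2.26 to -2.07, and the median over the 41 genes ranged from -0.18 to -0.04. That median was 0.005 after centring, beside 0.065 over all tested genes.

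None of the 10 genes at an unadjusted p under 0.05 turned direction in any of 13 alternative settings. Their groups do not overlap, so leaving out 1 array could not turn them, and most other settings leave a difference as it was. Of the 41 tested cyclic nucleotide genes, 18 turned in at least 1 of those settings. Pde7a ranged over those settings from -0.22 to 0.135 and turned in 4, Rapgef5 from -0.285 to 0.155 in 3, and in 2 each Pde2a from -0.08 to 0.16, Pde5a from -0.56 to 0.31 and Rapgef1 from -0.125 to 0.135. Adcy2, Akap10, Akap11, Pde6d, Pde7b and Rapgef2 turned only without 1 array. For the 24 genes followed value by value, 11 of 329 alternative values turned. A changed floor, variance model, block, test or threshold leaves a gene's difference as it was. Many of the 329 values thus could not turn, and the share is no measure of stability. Prkar1b turned to 0.059 after quantile normalization and 0.12 after centring, where Akap5 turned to 0.03 and Rapgef3 to 0.005, and Prkaca turned to 0.005 with probe sets averaged. Without 1 array Prkar1b ranged from -0.16 to 0.13, Prkar2b from -0.53 to 0.05, Adcy9 from -0.36 to 0.10 and Akap13 from -0.035 to 0.18. The causes were not tested.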
